A study of Homo sapiens with 4 samples.

Results

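The genes described here encode oxidative phosphorylation, the set of 5 protein complexes of the inner mitochondrial membrane that turn the oxidation of NADH and succinate into ATP. They were chosen by symbol and not by their values, as symbols that start with NDUF, UQCR or ATP5, the succinate dehydrogenase genes SDHA to SDHD, CYC1, and the COX4 to COX8 genes that carry a subunit letter. Of the 18244 genes with a probe set naming 1 gene, 92 met this rule, of which 86 were bright enough to be tested and 6 were not. By complex, 36 encode subunits of complex I, 8 are assembly factors of complex I (NDUFAF genes), 3 belong to complex II, 9 to complex III, 17 to complex IV and 19 to complex V. SDHB, UQCRFS1 and NDUFA4L2 were not analysed here, and NDUFA4 is listed on the platform as COXFA4, outside the rule, and is given with the other genes of the pathway.

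The RNA came from Kelly, an established human line of neuroblastoma, here cells that had become resistant to TAE684, which blocks the receptor kinase ALK. Both groups were grown in 1 µM TAE684, exposed to virus for 24 h with polybrene at 8 µg/ml and selected in puromycin for 48 h. They differed in the hairpin, which was directed against BORIS (shBORIS, 2 arrays) or against luciferase (shLUC, the control, 2 arrays). BORIS is the product of CTCFL, a germ-line paralog of the genome-organising factor CTCF. The labels call the 2 arrays of a group biological duplicates and name 1 hairpin against BORIS and no uninfected cells, so effects of the hairpin sequence and of less BORIS cannot be told apart. Each array is RNA from a whole culture, so fewer cells of a kind and less RNA per cell cannot be told apart either.

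Complex I takes electrons from NADH at the tip of an arm in the matrix and passes them to ubiquinone, and its membrane arm pumps protons. Complex II feeds electrons from succinate to the same ubiquinone pool, complex III passes them on to cytochrome c, and complex IV hands them to oxygen. Complex V, the ATP synthase, uses the proton gradient to make ATP: its F1 head in the matrix is held by a peripheral stalk while a ring of c subunits turns in the membrane. Most subunits are encoded in the nucleus and a core set in mitochondrial DNA. Most of the nuclear genes are expressed in all tissues, and neuroblastoma cells run the pathway beside glycolysis.

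The targeted gene, CTCFL, read 701 and 737 with shBORIS and 3563 and 3376 with shLUC, and its difference was -2.25 on the log2 scale as deposited (limma adjusted p = 2.41e-92). Correlations over the 10946 genes tested were 0.997 and 0.996 within the groups and 0.959 to 0.961 across them; genes are not replicates. Of 7 neuroblastoma markers in the table (GATA3, HAND2, ISL1, MYCN, PHOX2A, DBH and TH) all passed the filter, with means of 688 to 5599. Of 13 markers of fibroblasts, endothelium, leukocytes and striated muscle, 3 did: COL1A1, VWF and ACTA1, at means of 619, 73.2 and 89.8; the other 10 read at most 62.4 on any array. The median cellular probe set was brighter on the shBORIS arrays (intensities of 80.8 and 84.5) than on the shLUC arrays (64.4 and 60.4), so differences are given in 2 ways: as deposited, and centred, which means after subtracting from each array its median over the genes tested. All differences are log2 values, shBORIS minus shLUC, and those of single genes are centred unless given as deposited. A gene counts as called at a Benjamini-Hochberg adjusted p under 0.05 over all genes tested. Some markers moved with the hairpin. The fibroblast marker COL1A1 was lower both ways (-0.63 as deposited and -1.11 centred). Of the 7 neuroblastoma markers, DBH was higher both ways (0.87 and 0.39); the other 6 were called lower after centring, from -0.65 for PHOX2A to -0.15 for GATA3, and none of the 7 was called lower as deposited. The part of these shifts in the results on oxidative phosphorylation was not tested.

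On the deposited scale nearly the whole pathway was brighter in shBORIS cells. Of the 86 tested genes, 74 rose and 1 fell, with a median of 0.46, against 77.2% of all genes tested called higher, 4.64% called lower and a median of 0.48. Both shBORIS arrays were above both shLUC arrays in 80 genes and below them in 2, against 83.8% and 6.65% of all genes tested. Centred, 19 rose (22.1%) and 30 fell (34.9%), against 30.3% and 28.8% of all genes tested, and the median was -0.016. On the centred arrays 35 genes had both shBORIS values above both shLUC values and 34 had both below, against 40.4% and 39.0% of all genes tested. The changes were small: 0 of the 86 reached 2-fold, against 2.06% of all genes tested, and 52 lay within 0.2 of 0. All 19 that rose after centring were also higher as deposited. Of the 30 that fell, 18 were higher as deposited, 11 were not called there, and 1, NDUFC1, was lower both ways.

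After centring, the complexes read differently. Over all genes tested, 30.3% were called higher and 28.8% lower. Complex I had 11 genes that rose and 8 that fell of 36 (30.6% and 22.2%), with a median of 0.030. Complex II had 1 that rose and 0 that fell of 3, with a median of 0.079, and the assembly factors 1 each way of 8, with a median of 0.12. More genes fell than rose in the other 3 complexes. In complex III it was 5 against 1 of 9 (55.6% and 11.1%, median -0.15). In complex IV it was 7 against 0 of 12 (58.3% and 0%, median -0.19), and in complex V 9 against 5 of 18 (50.0% and 27.8%, median -0.11). As deposited the medians were all above 0, at 0.51 for complex I, 0.56 for II, 0.33 for III, 0.29 for IV, 0.36 for V and 0.59 for the assembly factors. The subunits of a complex are not replicates, so these counts and medians are a description, and the differences between complexes were not tested.

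**Figure D1:**
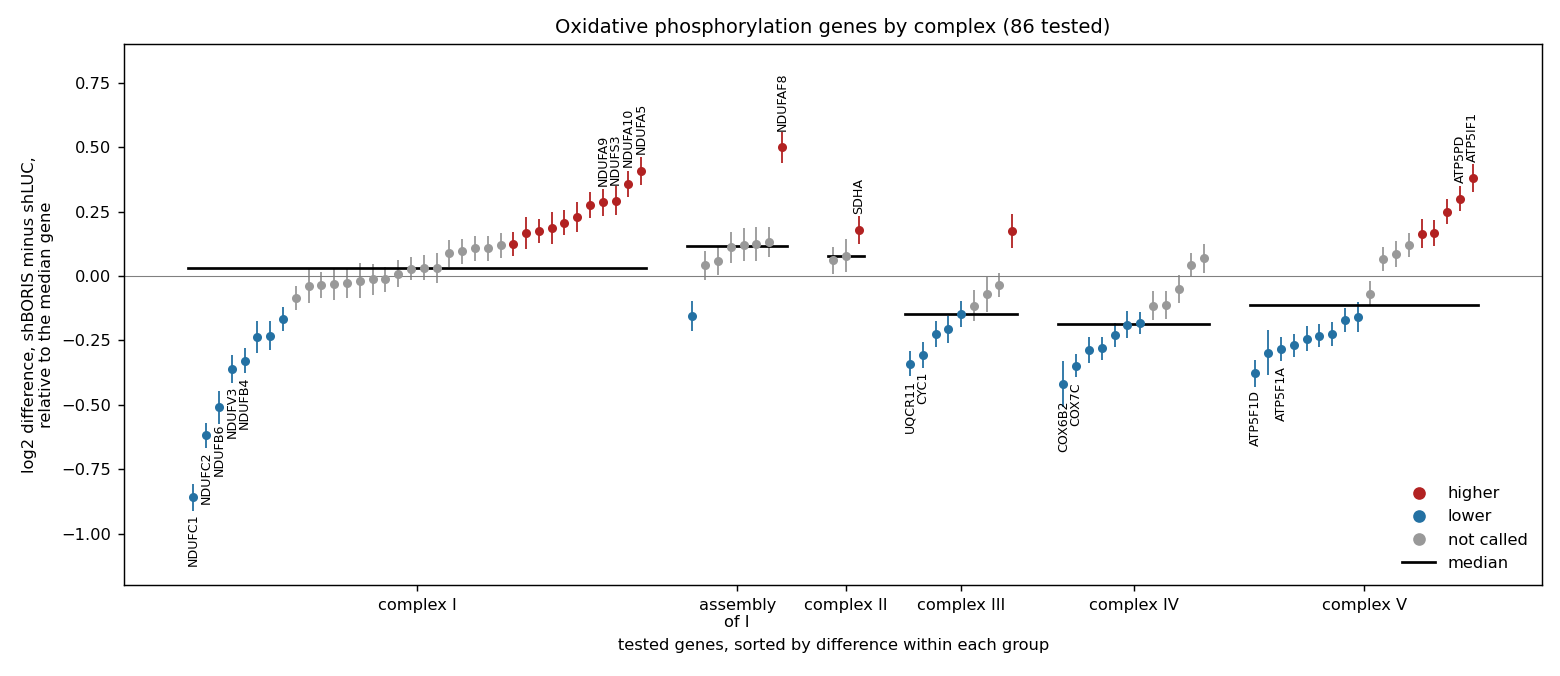
Centred log2 difference, shBORIS minus shLUC (vertical axis) for the 86 tested genes, sorted within each complex along the horizontal axis; points are limma estimates, bars 1 SE, colours the call, and black lines the median of each group. Complex I spans the widest range, from -0.86 for NDUFC1 to 0.41 for NDUFA5, while 0 of the 12 points of complex IV are called higher; as deposited, 1 of the 86 is called lower.

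**Figure D2:**
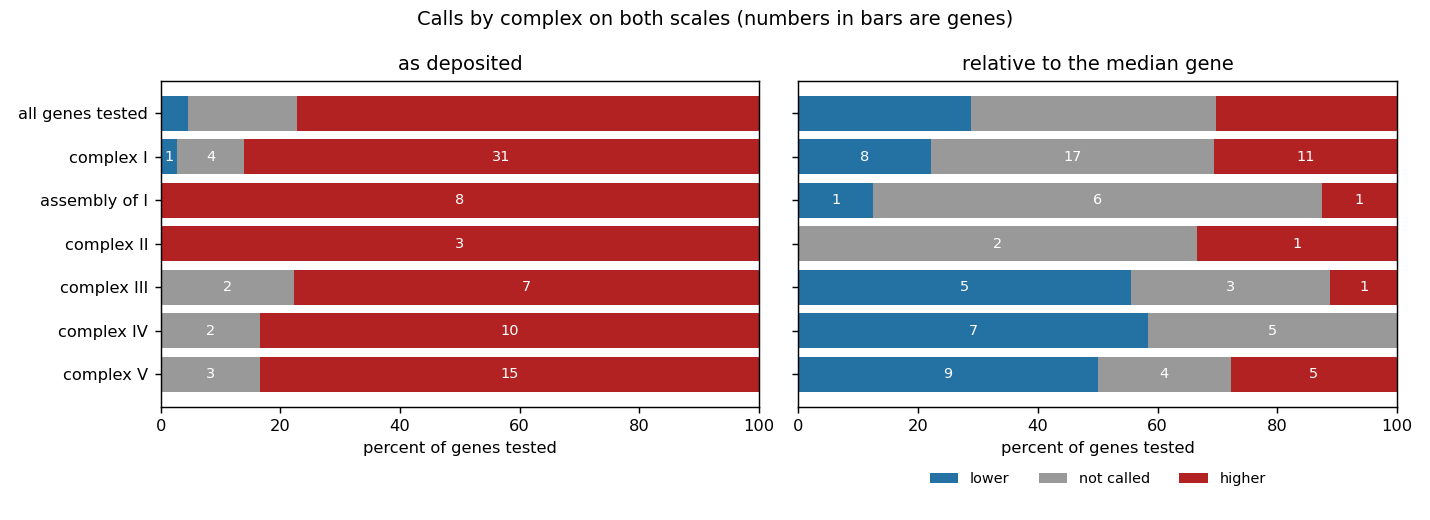
Share of tested genes called lower, not called and called higher (horizontal axis, percent), with the gene counts written in the bars, for all genes tested and for each group, as deposited on the left and centred on the right. On the deposited scale every group is mostly higher, and after centring the lower share is largest in complexes III, IV and V.

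The centred differences varied with brightness, and not in one direction. Spearman's rho of mean intensity and centred difference was 0.24 across all genes tested and -0.34 across the 86 genes of the pathway, a description across genes that share the same arrays. Below 500, 7952 genes had a centred median of -0.031, and the 6 of the pathway had 0.049, with 0 higher and 2 lower. Among all genes tested, the 180 with a mean intensity above 4000 had a centred median of -0.27, and 76.7% of them were called lower and 3.33% higher. Those between 1000 and 2000 had a median of 0.11, with 19.6% lower and 45.1% higher. The genes of oxidative phosphorylation are among the brightest of these cells, with 65 of 86 in the top 10% by intensity. Above 4000, their 10 genes had a median of -0.23, with 9 lower and 0 higher; between 2000 and 4000, 26 genes had a median of -0.059 against -0.023 for all genes of that class; and between 1000 and 2000, 34 had a median of 0.086 against 0.11. In the class from 500 to 1000, 10 genes had a median of 0.050 against 0.14. The median intensity of the tested genes was 3780.0 in complex IV, 2290.3 in V, 2145 in III, 1630.0 in I, 1244 in II and 469 in the assembly factors, so complexes III, IV and V had both the lower medians and the brighter genes. After cyclic loess, which removes a difference that depends on intensity, the medians were -0.012, -0.012, -0.14, -0.094 and -0.027 for complexes I to V. Calls there were 9 higher and 8 lower in complex I, 0 and 4 in III, 0 and 5 in IV and 4 and 8 in V, against 26.2% higher and 29.0% lower over all genes tested.

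**Figure D3:**
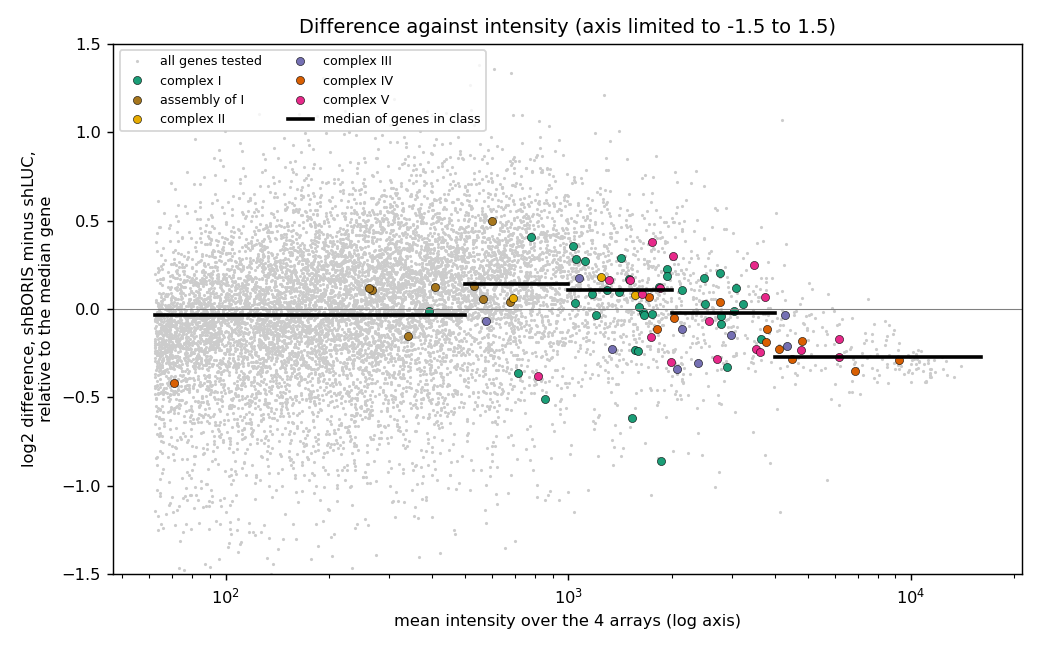
Centred log2 difference (vertical axis, limited to -1.5 to 1.5) against mean intensity over the 4 arrays (horizontal log axis) for all genes tested in grey and the genes of each complex in colour; black lines are the median of all genes in an intensity class. The line drops to -0.27 above 4000, where 9 of the 10 coloured points are called lower, and NDUFC1 and NDUFC2 lie far below the line at intensities near 1865 and 1536.

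A core of 15 genes kept its centred call and direction under every alternative in which it was tested, including quantile and cyclic loess normalization and the omission of each array in turn. The 7 that rose were the complex I subunits NDUFA5, NDUFA10, NDUFS3 and NDUFA9, the assembly factor NDUFAF8, the ATP synthase stalk subunit ATP5PD and the ATP synthase inhibitor ATP5IF1. The 8 that fell were the complex I subunits NDUFC1, NDUFB6, NDUFV3 and NDUFB4, cytochrome c1 (CYC1), the F1 subunits ATP5F1A and ATP5F1D, and COX6B2. All of these alternatives put the arrays on a common level, so none kept the deposited scale. As deposited, of the 8 that fell only NDUFC1 was called lower, and the other 7 ran from -0.033 for NDUFB6 to 0.19 for ATP5F1A. COX6B2 is dim, at a mean intensity of 70.7 against the filter at 62.2, and its difference as deposited was 0.058. The other 12 that rose and 22 that fell lost the call under at least 1 alternative. For NDUFS4, ATP5PB, NDUFC2, COX7A2 and ATP5MF this was only the mean of probe sets, which in these genes includes probe sets under the filter. In ATP5MF and NDUFC2 a probe set above the filter also had the opposite sign, at 0.043 (mean intensity 2465) and 0.24 (118).

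**Figure D4:**
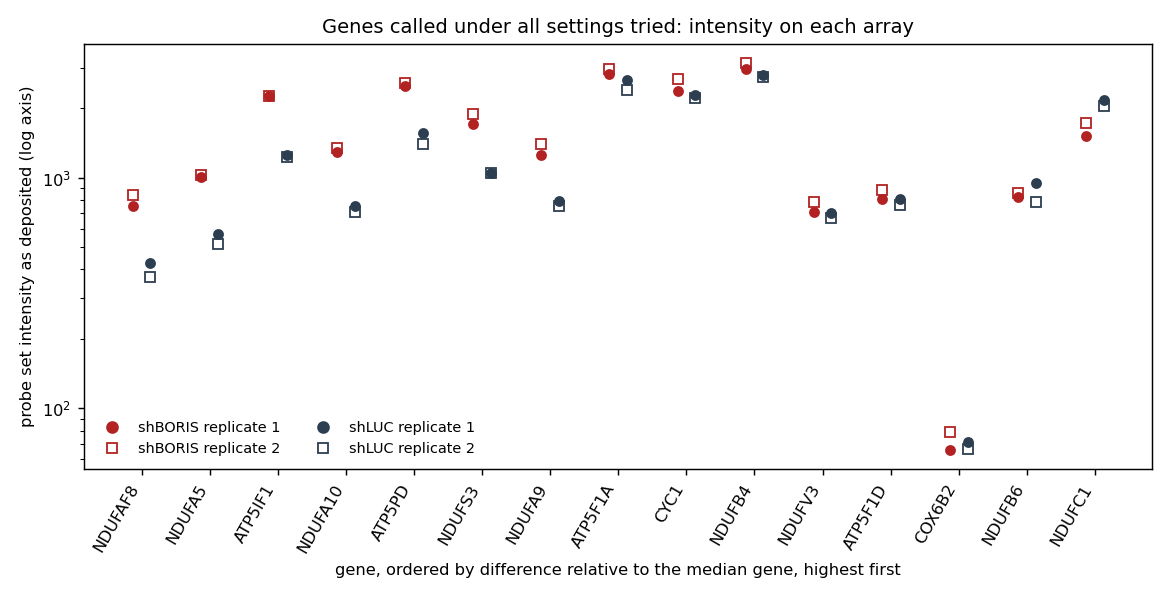
Probe set intensity as deposited (vertical log axis) on each of the 4 arrays for the 15 genes whose centred call held under all alternatives to the centred fit, ordered from the highest to the lowest centred difference. In the 7 genes on the left both shBORIS arrays (red) lie well above both shLUC arrays (dark), in the next genes the groups lie close together or overlap, and NDUFC1 on the right is lower on both shBORIS arrays.

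In complex I, the matrix arm, which carries out the electron transfer, held 7 of the 11 rises. Of its 15 tested genes 7 rose and 2 fell (46.7% and 13.3%, median 0.11). Of the 21 of the membrane arm 4 rose and 6 fell (19.0% and 28.6%, median 0.0093). Over all genes tested the shares were 30.3% and 28.8%; the difference between the arms was not tested, and after cyclic loess the medians were -0.011 and -0.012. NDUFA5, an accessory subunit of the matrix arm, read 1007 and 1029 with shBORIS and 571 and 517 with shLUC. Both shBORIS arrays were above both shLUC arrays, and the difference was 0.41 (SE 0.054; limma adjusted p = 1.25e-04); RefSeq names 12 pseudogene copies, so this value is uncertain. NDUFS3, a core subunit next to the iron-sulphur clusters, read 1704 and 1886 with shBORIS and 1045 and 1047 with shLUC and rose by 0.29 (SE 0.056; limma adjusted p = 0.00126). NDUFA10, which sits on the matrix face of the membrane arm, read 1298 and 1350.2 with shBORIS and 756 and 714 with shLUC and rose by 0.36 (SE 0.051; limma adjusted p = 1.99e-04), and its 3 probe sets had the same sign. In each of these 3 genes the groups did not overlap.

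NDUFC1, a small membrane-arm subunit, had the largest fall of the pathway. Its intensity was 1511 and 1726 with shBORIS and 2182 and 2039 with shLUC, lower on both shBORIS arrays, with a difference of -0.86 (SE 0.052; limma adjusted p = 1.27e-06) and of -0.38 as deposited (adjusted p = 4.87e-04). It has 1 probe set on the array, so no other probe set tests it. NDUFC2, its neighbour in the complex, read 1402 and 1518 with shBORIS and 1697 and 1526 with shLUC. As deposited its difference was -0.14 (adjusted p = 0.217), and centred it was -0.62 (SE 0.049; limma adjusted p = 5.38e-06). A dimmer NDUFC2 probe set, at 118, rose by 0.24, and as the mean of its probe sets NDUFC2 read -0.10 (adjusted p = 0.0671). NDUFB6, another membrane-arm subunit, read 828 and 863 with shBORIS and 949 and 788 with shLUC, so the groups overlapped as deposited. Centred, both of its probe sets fell, the brighter with a difference of -0.51 (SE 0.062; limma adjusted p = 7.63e-05).

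The other complex I genes that fell after centring were NDUFV3 at -0.36, an accessory subunit at the NADH-oxidising tip, NDUFB4 at -0.33, NDUFS7 at -0.24, NDUFB5 at -0.23 and NDUFAB1 at -0.17. NDUFAB1, the mitochondrial acyl carrier protein and the brightest of the complex, read 3838 and 4229 with shBORIS and 3312 and 3183 with shLUC; its call was lost after cyclic loess (-0.087, adjusted p = 0.0786). NDUFB4 has 12 named pseudogenes, 2 of its 3 probe sets hold identical values, and the third, the dimmest, read 0.15. Besides the 3 genes above, NDUFA9, NDUFS4, NDUFA12, NDUFB9, NDUFV2, NDUFS6, NDUFB11 and NDUFB1 rose, by 0.29 down to 0.12. NDUFB1 was the last gene inside the threshold (adjusted p = 0.0466), and ATP5F1C at 0.12 (adjusted p = 0.0504) and NDUFA11 at 0.12 (adjusted p = 0.0548) were the first outside it. The 17 not called, among them NDUFS1, NDUFS8 and NDUFV1 of the electron path, lay between -0.086 and 0.12 at their brightest probe sets. Another NDUFA11 probe set, at a mean intensity of 2046, read 0.29 (limma over all probe sets, adjusted p = 0.00101). The dimmest NDUFS1 probe set, at 81.4, read -0.74, and its others read -0.013 to 0.022. As deposited, the 8 genes that fell ran from -0.38 for NDUFC1 to 0.31 for NDUFAB1, and NDUFAB1, NDUFB5 and NDUFS7 were called higher there.

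Promoters of these genes are known for sites of NRF1 and of the ETS factor GABPA, and stretches of 5 of the 15 core genes are shown to let a reader compare genes that rose (NDUFA9, NDUFS3 and ATP5PD) with genes that fell (NDUFB4 and NDUFC1). They are RefSeq promoters of GRCh38.p14, 5′ to 3′ on the gene's strand and upstream of the start, with matches to the NRF1 motif (GCGCA, any base, GCGC) or the ETS motif CCGGAAG on either strand in capitals; for NDUFC1, which has no match, the last 60 bases before the start are given. NDUFB4 holds 3 NRF1 matches, of which 2 are shown. Most of these genes hold no match: 13 of the 15 had a promoter in the table, only the 4 shown with capitals held either motif, and 9 held neither. Of the 7 that rose, 4 held neither, namely NDUFA5, NDUFA10, NDUFAF8 and ATP5IF1. Of the 6 that fell and had a promoter, 5 held neither, namely ATP5F1A, COX6B2, NDUFB6, NDUFC1 and NDUFV3. At least 1 of the motifs was in 29.3% of the promoters of all genes tested and 45.8% of those of the tested genes of the pathway.
NDUFA9, chr12:4649024-4649053, plus strand: ttcttggttaGCGCTTGCGCagacaggcga
NDUFS3, chr11:47578962-47579007, plus strand: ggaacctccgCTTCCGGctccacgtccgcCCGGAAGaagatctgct
ATP5PD, chr17:75047054-75047080, minus strand: cgggaagataCTTCCGGaaccagccct
NDUFB4, chr3:120596167-120596292, plus strand: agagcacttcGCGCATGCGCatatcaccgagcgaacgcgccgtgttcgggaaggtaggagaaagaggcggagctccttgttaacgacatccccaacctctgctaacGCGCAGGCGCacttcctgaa
NDUFC1, chr4:139302552-139302611, minus strand: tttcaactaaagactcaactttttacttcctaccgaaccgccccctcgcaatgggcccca
Of the 86 tested genes, 72 had a promoter in the table, each 250 bases before to 50 after the start. The NRF1 motif was in 16 of them (22.2%), against 12.5% of the promoters of all genes tested and 6.28% of all promoters. The ETS motif was in 20 (27.8%), against 19.5% and 10.7%, and the sequence CCAAT of the factor NF-Y in 26 (36.1%), against 37.0% and 35.7%. Matches were counted for each motif separately, whether or not they overlapped. Among genes that rose, 4 of 17 promoters held the NRF1 motif and 2 the ETS motif; among genes that fell it was 4 and 8 of 23. A match is a run of letters in the window and not a measured site.

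Among the NDUFAF assembly factors, which build complex I and are not part of it, NDUFAF8 had the largest rise of the pathway by the brightest probe set of each gene. It read 751 and 845 with shBORIS and 426 and 369 with shLUC, 1.97-fold as deposited, and its centred rise was 0.50 (SE 0.060; limma adjusted p = 6.85e-05). Both its probe sets rose and its groups did not overlap. NDUFAF5, the enzyme that NDUFAF8 works with to modify NDUFS7, read 369.6 and 392 with shBORIS and 317 and 286 with shLUC, higher as deposited (0.32) and lower centred, at -0.15 (SE 0.058; limma adjusted p = 0.0431). That call was lost under 8 of 13 alternatives, the omission of any 1 array among them, with adjusted p of 0.0719 to 0.145. The brightest, NDUFAF2, read 754 and 842 with shBORIS and 566 and 538 with shLUC and was not called (0.041). The other 5, NDUFAF1, NDUFAF3, NDUFAF4, NDUFAF6 and NDUFAF7, had centred differences of 0.059 to 0.13 and were not called, while all 8 were higher as deposited. For NDUFAF4, the dimmest probe set, at a mean intensity of 112, rose by 0.69, and another, at 449, read 0.016.

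Complex II is the 1 complex with all of its subunits encoded in the nucleus. SDHA, its flavoprotein, read 1484 and 1564 with shBORIS and 1033 and 894 with shLUC and was higher by 0.18 (SE 0.054; limma adjusted p = 0.0161). The call was lost after cyclic loess (0.054, adjusted p = 0.4), quantile normalization (0.086, adjusted p = 0.188), with the mean of probe sets (0.035, adjusted p = 0.496), with a filter at the 60th percentile (0.11, adjusted p = 0.104) and when shBORIS replicate 1, shBORIS replicate 2 or shLUC replicate 2 was left out (limma, adjusted p of 0.0721, 0.0528 and 0.0878). The membrane anchor SDHC, the brightest, read 1735 and 1994 with shBORIS and 1237 and 1282 with shLUC. Its partner SDHD read 787 and 851 with shBORIS and 571 and 547 with shLUC. Neither anchor was called after centring (0.079 and 0.060), and all 3 were higher as deposited. Of the 5 SDHD probe sets above the filter, 3 dimmer than the one used were called higher, at 0.18 to 0.21. Those at 0.18 hold identical values, and the dimmest of the 5 read -0.022. SDHC was called higher with no filter (0.19, adjusted p = 0.0204) and without shLUC replicate 2 (0.16, adjusted p = 0.0492).

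In complex III, 5 of 9 genes fell after centring, while as deposited their differences ran from 0.14 to 0.33 and none was called lower. Cytochrome c1, CYC1, the subunit that hands electrons to cytochrome c, read 2382 and 2684 with shBORIS and 2279 and 2212 with shLUC; the difference was -0.31 (SE 0.051; limma adjusted p = 5.44e-04), and its 3 probe sets fell. UQCR11, a small subunit, read 2070.5 and 2272 with shBORIS and 2002 and 1941 with shLUC with a difference of -0.34 (SE 0.049; limma adjusted p = 2.20e-04). Its dimmer probe set, at 180.3, rose by 0.20, and the mean of both was -0.027 (adjusted p = 0.588), so the fall of UQCR11 rests on 1 probe set. UQCRC2, a core protein, read 1384 and 1542 with shBORIS and 1257 and 1190.2 with shLUC and fell by 0.22 (SE 0.051; limma adjusted p = 0.00364), a call lost with no filter (-0.11, adjusted p = 0.0915). The brightest, the hinge protein UQCRH, read 4437 and 5072 with shBORIS and 3946 and 3916 with shLUC and fell by 0.21 (SE 0.053; limma adjusted p = 0.00733); it was not called after cyclic loess (-0.092, adjusted p = 0.102), quantile normalization (-0.073, adjusted p = 0.216), with no filter (-0.092, adjusted p = 0.144) or without shBORIS replicate 1 (-0.16, adjusted p = 0.103). UQCRQ fell by 0.15 on the log2 scale, a call lost under 8 of 13 alternatives, among them the omission of shBORIS replicate 1 (-0.11, adjusted p = 0.227), shBORIS replicate 2 (-0.18, adjusted p = 0.0562) or shLUC replicate 2 (-0.10, adjusted p = 0.107). UQCRHL, a near-identical paralog of UQCRH whose probes cannot be told apart from it with certainty, read 1369 and 1267 with shBORIS and 864 and 802 with shLUC and was the 1 gene higher (0.17, SE 0.067; limma adjusted p = 0.0455), also lost under 8 of 13 alternatives. Among them were the omission of shBORIS replicate 1 (0.075, adjusted p = 0.433), shLUC replicate 1 (0.17, adjusted p = 0.0755) and shLUC replicate 2 (0.17, adjusted p = 0.0765). UQCRC1, UQCRB and UQCR10 read -0.12, -0.070 and -0.036 and were not called.

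In complex IV, 7 of 12 tested genes fell after centring and 0 rose, while as deposited the 7 ran from 0.058 to 0.30 and none was called lower. Of the 7, 6 are among the 11 ubiquitous subunits, and the other is COX6B2, near the filter. COX7C read 6964 and 7355 with shBORIS and 6600.0 and 6485 with shLUC, so as deposited both shBORIS arrays were slightly higher, and centred it fell by 0.35 (SE 0.046; limma adjusted p = 1.17e-04); after quantile normalization it was -0.047 (adjusted p = 0.184). COX6A1, the ubiquitous isoform of subunit 6A and the brightest gene of the pathway, read 9339 and 10267 with shBORIS and 8523 and 8627 with shLUC. Its difference was -0.29 (SE 0.050; limma adjusted p = 7.77e-04), -0.014 (adjusted p = 0.732) after cyclic loess and -0.0039 (adjusted p = 0.911) after quantile normalization. COX7A2 read 4732 and 4847 with shBORIS and 4388 and 3979 with shLUC and fell by 0.28 (SE 0.046; limma adjusted p = 4.61e-04); with the mean of its probe sets it was -0.11 (adjusted p = 0.0843). COX6B1 read 3921 and 4376 with shBORIS and 3404 and 3371 with shLUC and fell by 0.19 (SE 0.051; limma adjusted p = 0.00918), and COX8A read 5159.6 and 5422 with shBORIS and 4410.0 and 4208 with shLUC and fell by 0.18 (SE 0.044; limma adjusted p = 0.0051). Both were lost with no filter (-0.073, adjusted p = 0.216 and -0.067, adjusted p = 0.198) and after cyclic loess (-0.10, adjusted p = 0.0625 and -0.047, adjusted p = 0.268). COX6B1 was also lost without shBORIS replicate 1 (-0.15, adjusted p = 0.104) and COX8A without shBORIS replicate 2 (-0.17, adjusted p = 0.0677). COX5A fell by 0.23 (SE 0.047; limma adjusted p = 0.00201), a call lost with no filter (-0.11, adjusted p = 0.0532).

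COX4I1, the ubiquitous isoform of subunit 4, and COX7A2L, which links complexes III and IV in supercomplexes, were not called. COX4I1 read 2004 and 2082 with shBORIS and 1580.2 and 1588 with shLUC (centred, -0.11), and COX7A2L read 2239 and 2426 with shBORIS and 1717 and 1742 with shLUC (-0.050). COX5B, COX6C and COX7B read 0.068, -0.12 and 0.042 and were not called either. The isoforms known from lung, striated muscle or testis were dim. COX4I2 read 35.5 to 50.0 over the 4 arrays, COX6A2 46.1 to 75.4, COX7A1 24.7 to 28.0, COX7B2 10.7 to 12.4 and COX8C 29.2 to 37.0, all under the filter at a mean of 62.2 and untested. COX6B2, the testis isoform of subunit 6B, was just above it at 65.9 and 79.1 with shBORIS and 71.3 and 66.3 with shLUC. The groups overlapped as deposited, and its centred difference was -0.42 (SE 0.088, limma adjusted p = 0.00225). Centred, the untested COX4I2, COX7A1, COX7B2 and COX8C read -0.54, -0.45, -0.45 and -0.43, and COX6A2 read -0.039.

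In complex V the centred differences are given by position in the enzyme, and differences between positions were not tested. In the F1 head, which makes ATP, 4 of 5 genes fell (median -0.27), while as deposited the 4 ran from 0.10 to 0.31. The F1 median was -0.083 after cyclic loess, with 3 lower, and -0.029 after quantile normalization, with 2 lower. ATP5F1D, the delta subunit of the central stalk, read 806 and 884 with shBORIS and 811 and 763 with shLUC and fell by 0.38 (SE 0.052; limma adjusted p = 1.68e-04). ATP5F1A, the alpha subunit, read 2835 and 2957 with shBORIS and 2669 and 2402 with shLUC and fell by 0.28 (SE 0.047; limma adjusted p = 4.95e-04), with all 4 probe sets of the same sign. Of the other 2 that fell, ATP5F1B, the catalytic beta subunit, read -0.27, and -0.029 (adjusted p = 0.441) after quantile normalization. ATP5F1E, the brightest of the complex at 6682 and 6979.6 with shBORIS and 5547 and 5485 with shLUC, read -0.17, and changed sign to 0.017 (adjusted p = 0.692) after cyclic loess and to 0.078 (adjusted p = 0.069) after quantile normalization. Without shBORIS replicate 1 or 2, ATP5F1E was not called (-0.18, adjusted p = 0.059 and -0.16, adjusted p = 0.108). The gamma subunit ATP5F1C was not called (0.12).

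In the peripheral stalk 2 of 4 genes rose and 0 fell (median 0.17, and 0.20 after cyclic loess). ATP5PD read 2513 and 2585 with shBORIS and 1557 and 1409 with shLUC and rose by 0.30 (SE 0.049; limma adjusted p = 4.63e-04). ATP5PB read 4339.6 and 4317 with shBORIS and 2703 and 2518 with shLUC and rose by 0.25 (SE 0.049; limma adjusted p = 0.00159), but read 0.050 (adjusted p = 0.354) as the mean of its probe sets. That mean includes probe sets under the filter, at mean intensities of 28.8 and 37.5, which read -0.29 and -0.34. The ATP5PB probe sets above the filter read 0.25 and 0.41. The stalk genes ATP5PF and ATP5PO were not called (0.085 and 0.065). The largest rise of complex V was that of ATP5IF1, the small protein that blocks ATP hydrolysis when the gradient fails. It read 2254 and 2269 with shBORIS and 1250.5 and 1234 with shLUC, 1.81-fold as deposited, and rose by 0.38 (SE 0.054; limma adjusted p = 2.08e-04), with all 4 probe sets higher.

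ATP5MC1, ATP5MC2 and ATP5MC3 encode precursors of the same c subunit of the membrane ring and all were higher as deposited (0.64, 0.25 and 0.24); centred, 1 rose and 2 fell. ATP5MC1 read 1613 and 1589 with shBORIS and 1057 and 984 with shLUC and was higher by 0.16 (SE 0.055; limma adjusted p = 0.0252); the call was lost after cyclic loess (0.047, adjusted p = 0.49), quantile normalization (0.082, adjusted p = 0.24), with a filter at the 60th percentile (0.094, adjusted p = 0.158), with no trend in the prior variance (0.16, adjusted p = 0.0583) and without shBORIS replicate 1 (0.11, adjusted p = 0.24). ATP5MC2 read 3701 and 3954 with shBORIS and 3269 and 3156 with shLUC and fell by 0.23 (SE 0.046; limma adjusted p = 0.00186), and ATP5MC3 read 4944 and 5384 with shBORIS and 4451 and 4255 with shLUC and fell by 0.23 (SE 0.045; limma adjusted p = 0.00132). Both were lost under an alternative, ATP5MC2 with no filter (-0.11, adjusted p = 0.0549) and ATP5MC3 with the mean of probe sets (-0.089, adjusted p = 0.0532) and after quantile normalization (-0.079, adjusted p = 0.0583). Of these genes ATP5MC1 was the dimmest, at a mean of 1311 against 3520.2 and 4758, and levels of different probe sets are not compared as amounts. The difference between the 3 genes was not tested.

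The small membrane subunits, which shape the dimer of the synthase and the cristae, had 3 of 5 tested genes that fell after centring and 1 that rose. ATP5MG read 2271 and 1957 with shBORIS and 2013 and 1716 with shLUC, where the groups overlapped, and its difference was -0.30 (SE 0.087; limma adjusted p = 0.0138). It was -0.0070 (adjusted p = 0.898) as the mean of its probe sets, -0.18 (adjusted p = 0.085) with no filter and -0.15 (adjusted p = 0.131) without shBORIS replicate 2. ATP5MF at -0.24 and ATP5ME at -0.16 fell (as deposited both were higher, at 0.23 and 0.32), ATP5MJ at 0.16 rose, and ATP5MK at -0.069 was not called. The calls of ATP5MF, ATP5ME and ATP5MJ were lost as the mean of probe sets, at -0.079 (adjusted p = 0.144), -0.061 (adjusted p = 0.3) and -0.00042 (adjusted p = 0.994). The 4 ATP5MF probe sets above the filter read -0.24 to 0.043, the last at a mean intensity of 2465. For ATP5MJ that mean includes probe sets under the filter, at mean intensities of 24.5 to 36.9, which read -0.22 to -0.42. The 4 ATP5MJ probe sets above the filter read 0.12 to 0.23. ATP5MGL, a copy of ATP5MG, was under the filter at 31.5 to 39.3 over the arrays and untested.

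Leaving out 1 array ended some of the 49 centred calls. Without shBORIS replicate 1, 16 were not called (limma adjusted p = 0.0502 to 0.433), namely ATP5F1E, ATP5MC1, ATP5ME, ATP5MJ, COX6B1, NDUFA12, NDUFAB1, NDUFAF5, NDUFB1, NDUFB11, NDUFS6, NDUFV2, SDHA, UQCRH, UQCRHL and UQCRQ. Without shBORIS replicate 2, 12 were not called (limma adjusted p = 0.0512 to 0.165), namely ATP5F1E, ATP5ME, ATP5MG, COX8A, NDUFAF5, NDUFB1, NDUFB11, NDUFB5, NDUFB9, NDUFS6, SDHA and UQCRQ. Without shLUC replicate 1, 5 were not called (limma adjusted p = 0.0755 to 0.24), namely ATP5ME, NDUFAF5, NDUFB11, NDUFV2 and UQCRHL. Without shLUC replicate 2, 6 were not called (limma adjusted p = 0.0584 to 0.133), namely ATP5MJ, NDUFAF5, NDUFB1, SDHA, UQCRHL and UQCRQ. Other genes gained a call under another scaling. ATP5PO and NDUFA11 were called higher after cyclic loess (0.15 and 0.16), and COX4I1, NDUFA7 and UQCRB were called lower (-0.17, -0.16 and -0.21). UQCR10 turned from -0.036 centred to 0.092 after quantile normalization (limma adjusted p = 0.0391).

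Several probe sets were available for many of these genes. Of the 86, 50 had more than 1 above the filter, and in 35 of these all had the same sign after centring. The other 15 had at least 1 of the opposite sign. RefSeq names at least 1 pseudogene for 50 of the 86, and 36 were read by a probe set marked by the maker (suffix s or x) as matching several transcripts or possibly others, so single values of such genes are uncertain. The 50 without that mark had 8 higher and 18 lower after centring, with a median of -0.031.

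Of 40 tested assembly factors of the complexes with other names, 12 rose and 15 fell after centring (30.0% and 37.5%), against 30.3% and 28.8% of all genes tested. Their median was 0.033, and after cyclic loess it turned to -0.089, with 8 higher and 18 lower. They ran from -1.84 to 0.74, against -0.86 to 0.50 for the 86 genes of the pathway. SURF1, which is needed to build complex IV, had the largest change: it read 603 and 672 with shBORIS and 1689.7 and 1637 with shLUC, 2.57-fold lower as deposited, and after centring it fell by 1.84 (SE 0.054; limma adjusted p = 2.78e-08), on the 1 probe set it has. SDHAF4 and SDHAF2 both act on the SDHA protein of complex II and went opposite ways. SDHAF4 read 103 and 93.4 with shBORIS and 146 and 147 with shLUC and fell by 0.99 (SE 0.090; limma adjusted p = 1.18e-05), and SDHAF2, which attaches the flavin, read 818 and 857 with shBORIS and 378 and 327 with shLUC and rose by 0.74 (SE 0.058; limma adjusted p = 5.13e-06). UQCC2, which acts in the making of cytochrome b, had a centred fall (-0.62) and read -0.14 as deposited (adjusted p = 0.222). LYRM7, which helps insert the Rieske protein of complex III, and ATPAF1, a chaperone of F1, rose by 0.54 and 0.49. In SURF1, SDHAF4, SDHAF2, LYRM7 and ATPAF1 the groups did not overlap.

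Of 20 regulators of respiratory genes and of mitochondrial DNA, 8 rose and 3 fell after centring, against 30.3% and 28.8% of all genes tested, with a median of 0.12. After cyclic loess 5 were higher and 4 lower, with a median of 0.029. TFAM, which packages and transcribes mitochondrial DNA, read 406 and 399 with shBORIS and 186 and 185 with shLUC and rose by 0.58 (SE 0.068; limma adjusted p = 6.23e-05). YY1 and the elongation factor TEFM rose by 0.43 and 0.36, but read 0.067 and 0.023 as the mean of probe sets (adjusted p = 0.191 and 0.758). The polymerase POLG and the nuclear receptor ESRRA were lower, at -0.49 and -0.48, and had differences of -0.015 and -0.0021 as deposited. NRF1 read 196 and 205 with shBORIS and 163 and 155 with shLUC, higher as deposited (0.31) and lower centred, at -0.17 (SE 0.066; limma adjusted p = 0.0475), lost under 8 of 13 alternatives, the omission of any 1 array and the replicate block among them (adjusted p = 0.0533 to 0.5). GABPA read 197 and 227 with shBORIS and 136 and 107 with shLUC and was higher by 0.26 (SE 0.083; limma adjusted p = 0.0229), lost without shBORIS replicate 2 (0.20, adjusted p = 0.102) or shLUC replicate 2 (0.16, adjusted p = 0.16), with the mean of probe sets (0.096, adjusted p = 0.156) and with a filter at the 60th percentile (0.19, adjusted p = 0.0819). The coactivator PPARGC1A read 87.1 and 116 with shBORIS and 73.1 and 71.3 with shLUC and was not called (-0.072; adjusted p = 0.563), but as the mean of its probe sets it was called lower (-0.35, adjusted p = 4.29e-04). MYCN, the amplified oncogene of this line, read 5727 and 6041 with shBORIS and 5347 and 5279.5 with shLUC, 0.15 as deposited (adjusted p = 0.11) and, centred, -0.33 (SE 0.047; limma adjusted p = 1.92e-04); the median of all genes above 4000 was -0.27.

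Of 22 genes of the tricarboxylic acid cycle and pyruvate dehydrogenase, 6 rose and 7 fell after centring (27.3% and 31.8%, median -0.0035), and 3 were higher and 7 lower after cyclic loess (median -0.11). As deposited 20 of the 22 were called higher and 0 lower, against 77.2% and 4.64% of all genes tested. DLST and DLD, subunits of 2-oxoglutarate dehydrogenase, rose by 0.46 and 0.38. Citrate synthase, CS, read -0.25 and -0.11 (adjusted p = 0.0715) as the mean of its probe sets, and the pyruvate dehydrogenase kinase PDK4, dim at 74.8 to 91.0, fell by 0.52. As deposited PDK4 read -0.046. SUCLA2 at 0.27 and PDK3 at -0.30 were called, but not without shBORIS replicate 2 (0.13 and -0.26) or after cyclic loess (0.17, limma adjusted p = 0.123 and -0.15, limma adjusted p = 0.142). Both were also lost after quantile normalization (0.20, limma adjusted p = 0.0813 and -0.12, limma adjusted p = 0.211). SUCLA2 was lost with the 60th percentile filter (0.20, limma adjusted p = 0.0688) and PDK3 with no filter (-0.18, limma adjusted p = 0.0837). Of 15 genes of cytochrome c and of ubiquinone synthesis, 4 rose and 4 fell (26.7% each way), while as deposited 12 were called higher and 0 lower. Cytochrome c itself, CYCS, read 6207 and 6631 with shBORIS and 4845 and 4488 with shLUC and was not called after centring (-0.018), but it was called higher after cyclic loess (0.14, adjusted p = 0.0053), after quantile normalization (0.17, adjusted p = 0.00169) and as the mean of its probe sets (0.11, adjusted p = 0.0236). COQ2, the enzyme that joins the ring to its tail, rose by 0.27, and COQ10A, PDSS2 and COQ5 read -0.56, -0.46 and -0.37, all 3 called lower. As deposited none of these 3 was called lower, and COQ10A, the lowest of the 15 genes, read -0.083. COQ3 at 0.27 and PDSS1 at 0.27 were called higher. COQ3 was not called after cyclic loess (0.18, limma adjusted p = 0.0637) or without shBORIS replicate 1 (0.19). PDSS1 was not called as the mean of its probe sets (0.015, limma adjusted p = 0.818). Nor was it called without shBORIS replicate 2 (0.23) or shLUC replicate 2 (0.22).

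COXFA4, the complex IV subunit formerly called NDUFA4, read 6874 and 7563 with shBORIS and 5462 and 5314 with shLUC and was not called after centring (-0.058). The sign turned and it was called higher after cyclic loess (0.13, adjusted p = 0.00768), after quantile normalization (0.20, adjusted p = 0.00137) and as the mean of its probe sets (0.16, adjusted p = 0.00227); with the 60th percentile filter it was called lower (-0.13, adjusted p = 0.0319). DMAC2 read -0.26 (limma adjusted p = 0.00674), a call lost with no filter (-0.14, limma adjusted p = 0.0947) and without shBORIS replicate 1 (-0.20), and DMAC1 and DMAC2L were not called. Of the 13 subunits encoded in mitochondrial DNA, 1 was matched by symbol. It was COX3 (MT-CO3), subunit 3 of complex IV, which read 6190.4 and 6090.0 with shBORIS and 5543 and 4641 with shLUC with a centred difference of -0.20 (SE 0.060; limma adjusted p = 0.0144). It was -0.035 (adjusted p = 0.649) after cyclic loess, -0.0017 (adjusted p = 0.984) after quantile normalization, -0.049 (adjusted p = 0.326) as the mean of its probe sets and -0.15 (adjusted p = 0.149) without shBORIS replicate 2.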

How the data were processed

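RNA of each culture received ERCC spike-ins, and 100 ng of it was hybridised to an Affymetrix PrimeView array, per the labels' protocols. The authors deposited 1 intensity per probe set and array, on a linear scale. The submitters' processing notes name MAS5, affy and R 3.1.3 with no role for any of them. How the arrays were scaled, and the genome build, are not given in the sources used here. As deposited, the median ERCC intensity ran from 24.4 to 25.8 over the 4 arrays.

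Of 49495 probe sets, 45278 named 1 gene, and 202 controls were left out. Each gene was represented by its brightest probe set by mean over the 4 arrays, and genes at or under the 40th percentile, 62.2, were not tested, which left 10946. limma 3.58.1 in R 4.3.3 was fitted to log2(intensity + 16) with the hairpin as the only term and a trend in the prior variance, as deposited and after centring each array on its median over the genes tested; p-values were 2-sided and adjusted by Benjamini-Hochberg over all genes tested. Fold changes of dim genes as deposited are understated by the added 16. After centring, a gene near 0 as deposited reads below 0, because the median gene was higher on the shBORIS arrays. The prior had infinite degrees of freedom as deposited and 7.94 on centred arrays, so single p-values rest on spread pooled over genes; an exact permutation test of 2 against 2 arrays cannot go below 0.333. The number of arrays limits the precision. The fit was tested on simulated data, in which all genes had the same spread and the median gene had no shift. That simulation therefore cannot show how the calls behave under the shift seen here.

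The genes, lists and tests were chosen with earlier results of these data known. Genes named with their values on each array were CTCFL, up to 3 called genes each way per complex (1 in complex II) whose arrays did not overlap, the brightest gene of each complex, isoforms, up to 3 called genes each way of other lists, and NRF1, GABPA, TFAM, PPARGC1A and MYCN; other genes named were chosen after their values were seen. Promoters were taken from RefSeq's table by symbol. Alternatives were the scaling, pseudocount, filter, probe set rule, variance trend, replicate block and the omission of each array. The mean of probe sets was taken over all probe sets of a gene, those under the filter included.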

Additional observations from a re-analysis of the deposited data

How the results depend on the processing

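After centring 19 genes were higher. The 60th percentile filter gave 11, no filter gave 40, and there were 10 to 18 without each array in turn, the lowest without shBORIS replicate 1. Both filters change the median gene to which arrays are centred. The count of genes lower, 30, stayed within 1.5 times under all alternatives (20 to 34), and so did the 74 higher as deposited (57 to 81). With the replicate block, 22 genes were higher and 32 lower after centring, and 58 higher as deposited. With each array centred on its median ERCC value in place of its median gene, 73 genes were higher and 1 lower, with a median of 0.43. The replicate numbers are not known to pair the arrays: deviations of same-numbered arrays correlated at 0.10 over genes. Without each array the median of all genes of the pathway was 0.43 to 0.53 as deposited and -0.0059 to 0.011 after centring. The latter was -0.052 after cyclic loess, -0.084 with the 60th percentile filter, 0.081 with no filter, 0.015 with the mean of probe sets and 0.037 with a pseudocount of 64. After cyclic loess the median was -0.012 in complex I, 0.0096 in the assembly factors, -0.012 in complex II, -0.094 in complex IV and -0.027 in complex V. After quantile normalization the median was 0.016 in complex I, 0.052 in the assembly factors, 0.010 in complex II, -0.049 in complex IV and -0.0030 in complex V. With the 60th percentile filter it was -0.041 in complex I, 0.046 in the assembly factors, 0.0086 in complex II, -0.25 in complex IV and -0.18 in complex V. With no filter it was 0.14 in complex I, 0.23 in the assembly factors, 0.19 in complex II, -0.033 in complex III, -0.11 in complex IV and -0.044 in complex V. With the mean of probe sets it was 0.058 in complex I, 0.15 in the assembly factors, -0.12 in complex IV and -0.026 in complex V. With a pseudocount of 1 it was 0.0040 in complex I and -0.14 in complex V. With a pseudocount of 64 it was 0.088 in complex I, 0.13 in complex II, -0.081 in complex III, -0.12 in complex IV and -0.049 in complex V. Of these, the medians of complexes I and II changed sign after cyclic loess, and that of complex I also with the 60th percentile filter. Without each array in turn it ranged from 0.025 to 0.052 in complex I, 0.071 to 0.12 in the assembly factors, 0.037 to 0.13 in complex II and -0.12 to -0.081 in complex V. Across the 49 called genes, 15 kept the call under every alternative in which they were tested, and ATP5F1E and ATP5MJ changed sign under at least 1. COX6B2 could not be tested with the 60th percentile filter. Members by updated symbol were the same 92 genes. The spread of 2 arrays a group limits what a single gene can show, and the causes of these shifts were not tested.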
